A study of Mus musculus with 12 samples.

Results

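Liver RNA pooled from mice without haptoglobin (Hp-null) was hybridised together with RNA of a wild-type liver pool on 4 of the 12 arrays of the series, chosen by their titles as the Hp-null liver replicates 1 to 4. The other arrays set hemopexin-null (Hx-null) and double-null (HpHx-null) liver, 4 arrays each, against the same wild-type pool. All mice were adult littermates bred from double heterozygous parents (Hp+/-Hx+/-) on the mixed background C57/BLJ6 X 129Sv. The Hp-null mice are given as Hp-/-Hx+/ and the controls as Hp+/Hx+/. The Hx-null mice carry Hp+/Hx-/- and the double-null mice, HpHx-null, lack both genes, Hp-/-Hx-/-. The labels name no treatment. Livers of at least 5 perfused mice were pooled per genotype. The 4 arrays therefore measured 1 pair of pools repeatedly: each p-value sets 2 pools against the spread between arrays, which is technical, and leaves out the spread between mice and that of the wild-type pool itself. The arrays were spotted cDNA arrays hybridised with 2 dyes. Per the labels, the Hp-null pool carried Cy5 on replicates 1 and 2 and Cy3 on replicates 3 and 4.

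Haptoglobin is a plasma protein made mainly by hepatocytes. It binds hemoglobin that leaks from red cells, and the complex is taken up by macrophages through CD163, where heme oxygenase releases the iron. Hemopexin, also made by the liver, binds free heme. Iron that enters a cell is stored in ferritin, a shell of light (Ftl1) and heavy (Fth1) chains, and hepatocytes meet oxidants and electrophiles with glutathione transferases, peroxidases and catalase. Ferritin chains are regulated in large part at translation, so the RNA level is only one layer of their control.

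Of 31200 spots, 4167 held a value on at least 1 array. They formed 2151 clones spotted in duplicate, and after clones of 1 gene were averaged, 2052 features, of which 918 carry 1 gene symbol. In Hp-null liver 2017 features, 902 of them named, had a value on at least 3 of the 4 arrays and were tested, and 35 were not. The 4 Hp-null arrays held 3522 to 4165 spot values, and duplicate spots correlated at 0.90 to 0.98 over the 12 arrays. Hp-null replicate 4 alone held 4165 of the 4167 spots, so the measured set is nearly that of 1 array. The Hx-null arrays held 3088 to 4050 and the HpHx-null arrays 3009 to 3934. Every gene name below rests on an inference: spot k was given the gene of spot 31201 minus k in the platform annotation. Under that mirrored numbering 205 pairs of different clones of 1 gene were both measured, against 66.1 expected from the share of clones measured, and their values correlated at a median of 0.86. Under the direct numbering the same figures were 63 pairs and -0.29. No spot of the annotation names haptoglobin or hemopexin, so the deleted gene itself was not measured here and gives no check of the labels. The values are ratios and hold no levels, so liver identity could not be read from marker levels. Of 32 hepatocyte markers 4 were measured under a single symbol (Ttr, Serpina1e, Apoa1 and Alb). Of other cells, the macrophage markers Fcgr1 and Fcer1g had log2 ratios of -0.08 and 0.01, the neutrophil marker Ltf -0.02 and the fibroblast marker Lum 0.21, and none of the 4 passed the test. No erythroid, endothelial, cholangiocyte or lymphocyte marker of the lists was measured under a single symbol. Clones with several symbols were not matched to the lists, so such markers may be among them. The part of other cells in the results was not tested.

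The sign of the ratios is not settled. Replicates 1 and 4 correlated with each other at 0.89 and replicates 2 and 3 at 0.81 over spots, although in each of those pairs the labels give opposite dyes. Arrays with the same labelled dyes were opposed: replicates 1 and 2 correlated at -0.55, and replicates 3 and 4 at -0.77. The same split ran through all 12 arrays, with correlations of 0.46 to 0.89 within and of -0.79 to -0.14 between the 2 blocks of arrays, and 1 component held 69.4% of the sum of squares. The blocks were read from the values (Hp-null replicates 1 and 4 are called block A, replicates 2 and 3 block B). In Hx-null liver block and labelled dye coincide and cannot be told apart. There replicates 1 and 2 (null pool in Cy5) are block B and replicates 3 and 4 (Cy3) block A. In Hp-null and HpHx-null liver the blocks do not follow the labelled dyes. The ratios are therefore given with the sign as deposited, as positive or negative rather than as higher or lower in the null liver. If all arrays run the same way, a positive and a negative ratio lie on opposite sides of the wild-type pool and turning the whole table exchanges the counts. If the blocks run in opposite directions, neither holds. A fitted ratio would then average opposed ratios and would not measure null against wild type, and neither would differences between fitted ratios. Which arrays set null over wild type is not given in the sources used here.

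**Figure D1:**
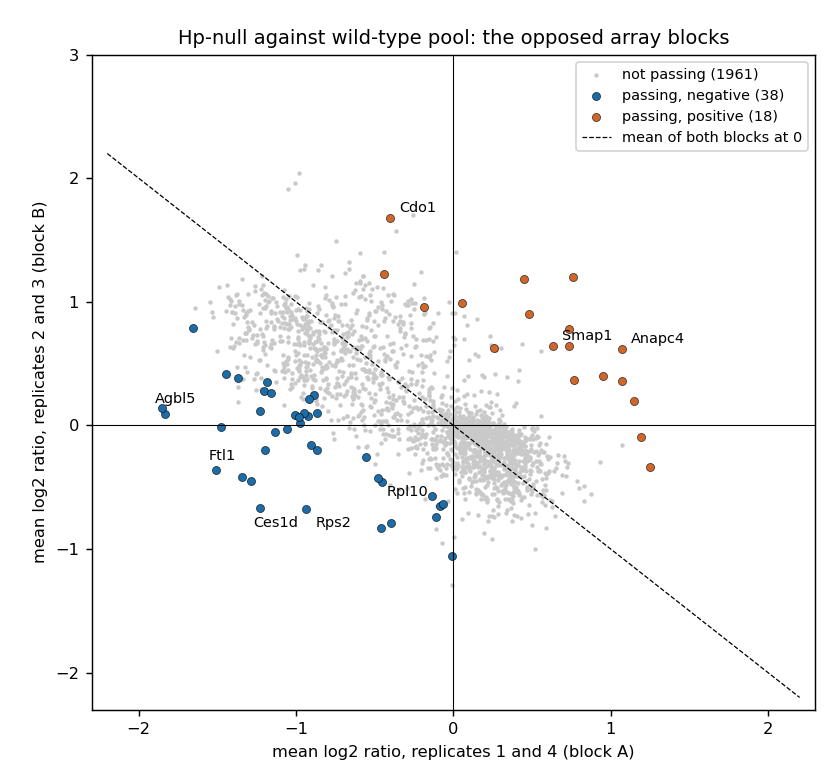
Mean log2 ratio of each tested feature on replicates 1 and 4 (block A, x axis) and on replicates 2 and 3 (block B, y axis) in Hp-null liver. Each point is a feature, blue or orange points passed the test with a negative or positive ratio, and grey points did not. Most features lie along the dashed line, where the blocks cancel, and the 38 blue and 18 orange points lie off it to either side.

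With a term for the block of each array, 56 of 2017 features (2.78%) passed an adjusted p of 0.05 in Hp-null liver (limma with Benjamini-Hochberg adjustment over all features tested). Of these, 38 ratios were negative (1.88% of features tested) and 18 were positive (0.892%); with the sign of all arrays turned together they would be 38 positive and 18 negative. They ran from -0.96 to 0.98 on the log2 scale, and 23 reached a fold of 1.5. The median over all tested features was -0.01, with quartiles of -0.14 and 0.08. Named genes made up 30 of the 56, 20 negative and 10 positive. With the labelled dyes as the term in place of the blocks, 0 of 2017 features passed (limma, 49 at an unadjusted p under 0.05), and the smallest adjusted p was 0.531, for Rps2. With each array turned by its labelled dye, 0 passed as well, and 0 had an unadjusted p under 0.05. The counts of features passing against the wild-type pool thus depend on the block term, which was taken from these arrays and makes the p-values too small. The ratio carried the same sign on every Hp-null array with a value for 147 of the tested features (7.29%), and for 28 of the 56 that passed, 18 of them named.

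**Figure D2:**
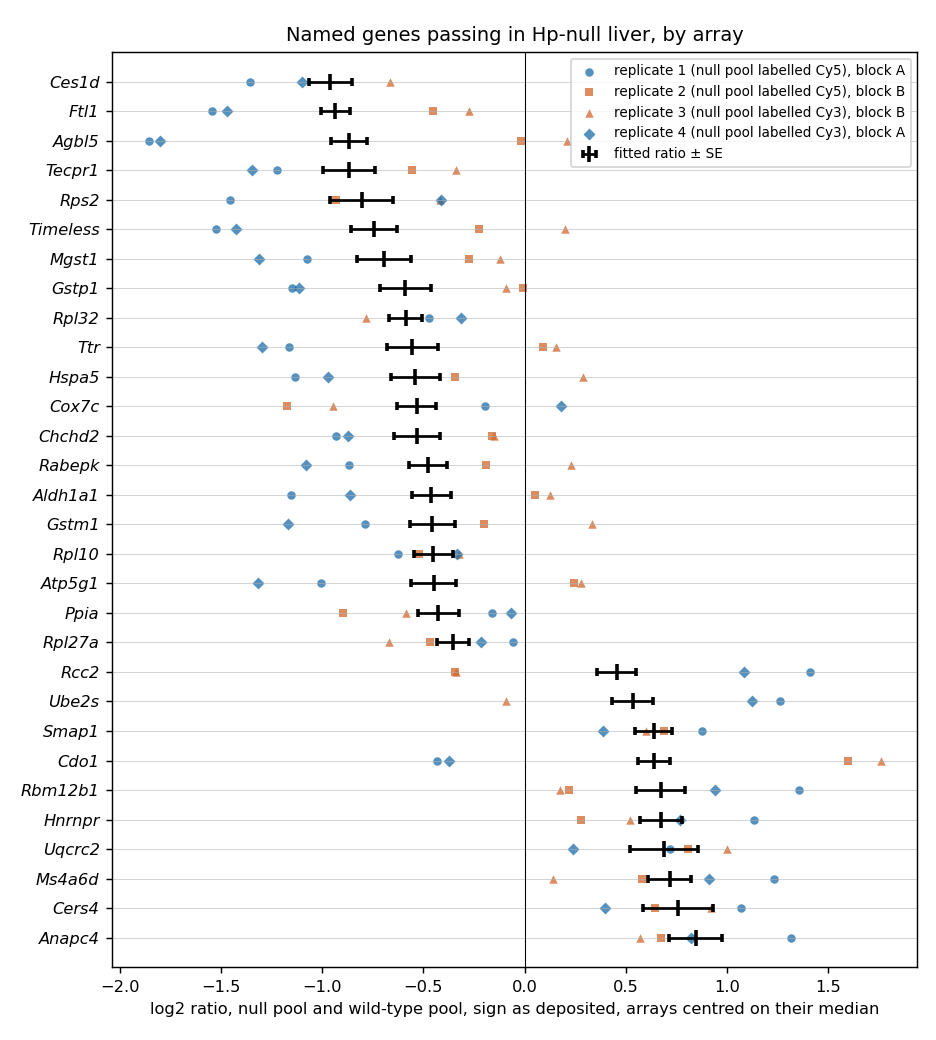
Log2 ratio of each of the 30 named genes that passed, on each Hp-null array (x axis, sign as deposited), with the fitted ratio and its standard error as black crosses. Blue marks are block A (replicates 1 and 4) and orange marks block B (replicates 2 and 3). The blocks stand apart for most genes, while for Smap1, Cers4 and Rpl10 the 4 marks lie together on one side of 0.

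Iron handling was led by the ferritin light chain. The 4 Ftl1 ratios were -1.55, -0.45, -0.28 and -1.47 on replicates 1 to 4. All are negative, with block A (mean -1.51) further from 0 than block B (mean -0.36). The fitted log2 ratio was -0.94 (SE 0.07, limma adjusted p = 8.84e-06), a 1.91-fold difference, and the lowest adjusted p of the comparison. Ftl1 is the most densely sampled of the passing genes, with 6 measured clones at -1.19 to -0.49, all negative, of which 5 had a value on every Hp-null array. One of these clones was at 0.11 on replicate 3, while the others were negative on each array where they were measured.

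The ferritin heavy chain Fth1, the ferroxidase subunit, had ratios of -0.43, -0.04 and -0.63 on replicates 1, 3 and 4 and none on replicate 2. Its fitted ratio was -0.33 (SE 0.11, adjusted p = 0.134), so it lay on the same side as Ftl1 without passing. The importer of non-transferrin-bound iron Slc39a14 was at -0.14 and the transferrin receptor Tfrc at -0.02, and neither passed. Of the 4 iron genes tested, 1 passed (against 1.88% of all features with a negative ratio), and the list median was -0.23 beside -0.01 for all features.

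The 250 bases upstream of the Ftl1 start in RefSeq (GRCm38.p6, chr7:45459887-45460136, minus strand) are printed because Ftl1 has the lowest adjusted p of the comparison, beside those of 2 passing glutathione transferases, Gstp1 (chr19:4037913-4038162, minus strand) and Mgst1 (chr6:138140277-138140526, plus strand, the first of 2 listed starts). They are written 5′ to 3′ along the gene, and capitals mark matches on either strand to the core of the antioxidant response element, searched as TGACNNNGC or TGAGNNNGC, the motif through which NRF2 drives ferritin and glutathione transferase genes.
Ftl1: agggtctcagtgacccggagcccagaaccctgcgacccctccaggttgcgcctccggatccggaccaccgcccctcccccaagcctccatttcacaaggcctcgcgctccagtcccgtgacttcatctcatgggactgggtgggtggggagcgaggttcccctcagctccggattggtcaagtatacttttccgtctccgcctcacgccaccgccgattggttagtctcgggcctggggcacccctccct
Gstp1: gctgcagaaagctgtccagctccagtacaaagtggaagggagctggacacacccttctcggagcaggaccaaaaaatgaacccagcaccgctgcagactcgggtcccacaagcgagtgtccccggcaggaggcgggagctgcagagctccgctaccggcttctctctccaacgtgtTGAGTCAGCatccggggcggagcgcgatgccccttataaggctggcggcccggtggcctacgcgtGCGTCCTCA
Mgst1: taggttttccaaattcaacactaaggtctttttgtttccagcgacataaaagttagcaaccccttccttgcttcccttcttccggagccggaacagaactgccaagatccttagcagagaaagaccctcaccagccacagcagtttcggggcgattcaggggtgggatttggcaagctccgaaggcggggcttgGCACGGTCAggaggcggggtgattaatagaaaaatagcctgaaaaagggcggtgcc
The Gstp1 window holds 2 matches, TGAGTCAGC and, on the other strand, GCGTCCTCA, the printed Mgst1 window 1 (GCACGGTCA), and the Ftl1 window none. The window of the second listed Mgst1 start (chr6:138141337-138141586) holds 0 matches. These letters are common: 7560 of 32851 RefSeq windows of that length (23.0%) hold a match, and among the 31 windows listed for 22 of the 30 named genes 12 did (38.7%). A match describes the letters and is neither evidence of binding nor of a cause, and no match in a window says nothing of the factor.

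**Figure D3:**
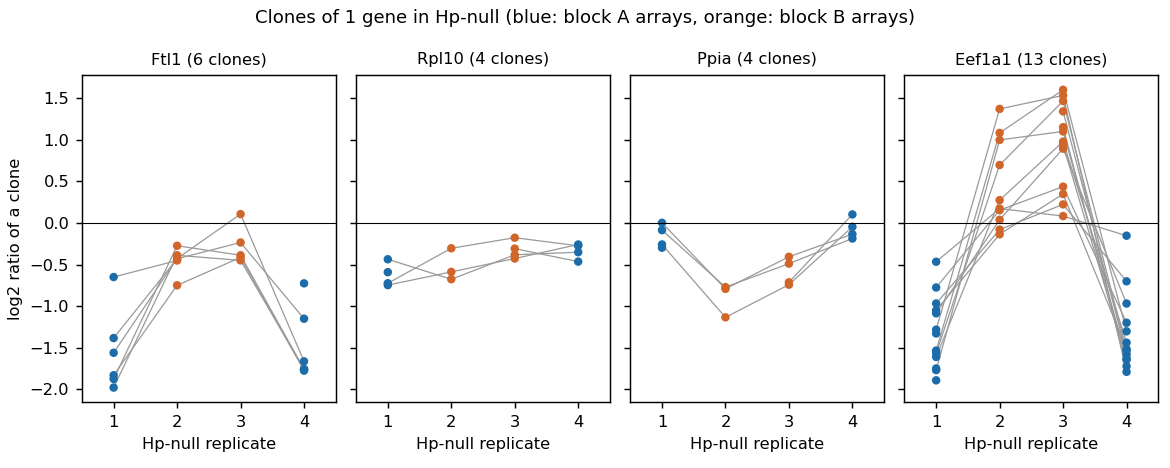
Log2 ratio of every measured clone of Ftl1, Rpl10, Ppia and Eef1a1 (y axis) on the 4 Hp-null arrays (x axis), with lines joining 1 clone over neighbouring arrays and colours for the block. The 6 Ftl1 clones stay below 0 apart from 1 value of 0.11, and the 13 Eef1a1 clones swing from negative in block A to mostly positive in block B.

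No tested gene of heme handling (3) or of the metallothioneins (2) passed, where 2.78% of all features did. In lists this short, none passing lies near that share. The heme-binding protein Hebp1 was at 0.45 (SE 0.15, adjusted p = 0.128), the heme-associated membrane protein Pgrmc1 at -0.25 and uroporphyrinogen decarboxylase, Urod, of heme synthesis at 0.08. Metallothioneins, which bind zinc and copper and are strongly induced in stressed liver, had fitted ratios of 0.02 (Mt1, values 0.02, -0.16, 0.03 and 0.18) and 0.03 (Mt2, values 0.12, -0.26, -0.05 and 0.31). Their SEs were 0.07 and 0.08, and the values lay on both sides of 0 in each.

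Glutathione transferases join glutathione to electrophiles. Of 4 tested members 3 passed, all negative, against 1.88% of all features, and the list median was -0.52. After quantile normalization Mgst1 still passed, while Gstp1 and Gstm1 did not (limma adjusted p = 0.128 and 0.16). None of the 3 passed without Hp-null replicate 1, without replicate 2 or without replicate 4. The microsomal transferase Mgst1 had ratios of -1.08, -0.27, -0.12 and -1.31, all negative, with block A well below block B. It fitted at -0.70 (SE 0.13, limma adjusted p = 0.0186).

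The pi-class transferase Gstp1 was at -1.15, -0.01, -0.09 and -1.11. Block B sat at 0, so the fitted ratio of -0.59 (SE 0.13, adjusted p = 0.0319) came from replicates 1 and 4. Gstm1, of the mu class, was at -0.79, -0.20, 0.34 and -1.17, with replicate 3 on the other side of 0, and fitted at -0.46 (SE 0.11, adjusted p = 0.043); its 2 clones gave -0.38 and -0.53. Its relative Gstm2 was at -0.25 (adjusted p = 0.303). Gstm1 and Gstm2 are close in sequence, and long cDNA spots may not tell them apart.

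Of the antioxidant enzymes none passed, where 2.78% of all features did. Of 8 ratios 6 were negative, beside 53.0% of all features, and the median was -0.30. Superoxide dismutase Sod1 had ratios of -1.22, 0.55, 0.71 and -1.62, a split by block, and fitted at -0.39 (adjusted p = 0.0895). Glutathione peroxidase Gpx1 was at -0.34, the selenium carriers and selenoproteins Selenop and Selenow at -0.33 and -0.28, thioredoxin Txn1 at -0.32 and the peroxiredoxins Prdx1 and Prdx2 at -0.13 and 0.05. Catalase, which breaks down hydrogen peroxide, had ratios of -1.04, 1.51, 2.31 and -1.05, the widest swing between blocks among the genes of this list, and a fitted ratio of 0.43 (SE 0.11, adjusted p = 0.071).

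Cysteine dioxygenase Cdo1, which starts cysteine breakdown toward taurine, passed with a positive ratio, as did 0.892% of all features. Its values were -0.43, 1.60, 1.76 and -0.37. Block B was strongly positive and block A weakly negative, so the arrays did not share a sign. The fitted ratio was 0.64 (SE 0.08, limma adjusted p = 0.00313). The other members of the methionine and cysteine list did not pass: the S-adenosylmethionine synthetase of liver, Mat1a, was at -0.33, Mat2b, the regulatory subunit of the related synthetase MAT II, at -0.18, betaine-homocysteine methyltransferase Bhmt at 0.18 and Csad, the next enzyme toward taurine, at 0.01.

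Among secreted plasma proteins 1 of 8 tested passed, with a negative ratio, beside 1.88% of all features. Transthyretin, Ttr, the carrier of thyroxine and of retinol-binding protein, had ratios of -1.16, 0.09, 0.15 and -1.30. Only block A departed from 0, and the fitted ratio was -0.55 (SE 0.13, adjusted p = 0.0383). The antitrypsin-family inhibitor Serpina1e was at 0.53 (adjusted p = 0.137) with values of -0.72, 1.72, 2.37 and -1.24, a spread far wider than its fitted ratio. Albumin (-0.01), apolipoprotein Apoa1 (-0.17), butyrylcholinesterase Bche (0.16), Igf1 (0.05), clusterin Clu (0.02) and protein C, Proc (0.00), did not pass. Serpinf1 had values on replicates 3 and 4 alone, -0.62 and -0.43, and was not tested.

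The ratio furthest from 0 among named genes belonged to the carboxylesterase Ces1d, a triacylglycerol hydrolase of hepatocytes. It was at -1.36, -0.66 and -1.10 on replicates 1, 3 and 4 and had no value on replicate 2. All were negative, and it fitted at -0.96 (SE 0.11, limma adjusted p = 0.00348), a 1.95-fold difference. Aldh1a1, which turns retinaldehyde into retinoic acid, was at -1.15, 0.05, 0.13 and -0.87 and fitted at -0.46 (adjusted p = 0.0321), resting on block A. These were the only tested members of the list of cytochromes P450 and conjugation enzymes. Of all features 1.88% passed with a negative ratio.

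The endoplasmic reticulum chaperone Hspa5 (BiP), a main target of the unfolded protein response, had ratios of -1.14, -0.34, 0.29 and -0.97. Of the arrays only replicate 3 was positive, and the fitted ratio was -0.54 (SE 0.12, adjusted p = 0.0355). The other 8 chaperone and heat shock genes tested did not pass, Hspe1 being at -0.21 and Hspa8 at -0.16, and the list median was -0.01. Of all features 1.88% passed with a negative ratio. The 250 bases before the Hspa5 start (GRCm38.p6, chr2:34771840-34772089, plus strand) are printed because they hold the full ER stress response element, searched on both strands as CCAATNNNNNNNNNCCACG and marked in capitals, which occurs in 37 of 32851 windows (0.113%). No other passing gene with a listed window held it.
Hspa5: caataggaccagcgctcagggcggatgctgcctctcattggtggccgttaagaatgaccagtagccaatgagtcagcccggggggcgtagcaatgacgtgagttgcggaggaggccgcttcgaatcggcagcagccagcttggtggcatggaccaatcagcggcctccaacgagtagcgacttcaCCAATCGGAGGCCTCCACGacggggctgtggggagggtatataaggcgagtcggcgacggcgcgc

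Ribosomal protein genes leaned to the negative side. Of 25 tested, 19 ratios were negative (76.0%, beside 53.0% of all features), and the median was -0.19 beside -0.01. The medians of members with a ratio in Hx-null and HpHx-null liver were -0.07 and -0.10, beside -0.02 and -0.03 for all features. Of the 25, 4 passed, all negative, where 1.88% of all features did. The small-subunit protein Rps2 was at -1.45, -0.93, -0.42 and -0.41, negative on every array, and fitted at -0.81 (SE 0.16, limma adjusted p = 0.0201). Without replicate 1 its ratio was -0.53. The large-subunit protein Rpl10 gave the closest agreement between arrays among the passing genes with a symbol, -0.62, -0.52, -0.32 and -0.34, with a fitted ratio of -0.45 (SE 0.10, adjusted p = 0.0321) and 4 clones that were all negative. Rpl10 did not pass after quantile normalization (limma adjusted p = 0.118).

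Rpl32 was at -0.47, -0.79 and -0.32 on replicates 1, 3 and 4 and fitted at -0.59 (adjusted p = 0.00492), and Rpl27a fitted at -0.35 (adjusted p = 0.0411), also negative on every array. Ribosomal protein genes have many processed pseudogenes, which cDNA spots may not tell apart. Of 9 translation factors none passed, where 2.78% of all features did, and their median was -0.05. The elongation factor Eef1a1 shows the limit of the arrays: its 13 clones, all with a negative ratio, averaged -1.31, 0.46, 0.93 and -1.32, and the fitted ratio of -0.31 (SE 0.10, adjusted p = 0.107) is small beside that swing.

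Respiratory chain genes went both ways. Of 21 tested, 2 passed with a negative and 1 with a positive ratio, where 1.88% and 0.892% of all features did, with a list median of -0.08. Cox7c, a subunit of cytochrome c oxidase, was at -0.20, -1.17, -0.95 and 0.18, and Atp5g1, a membrane subunit of ATP synthase, at -1.01, 0.24, 0.28 and -1.32. The first rests on block B and the second on block A, with fitted ratios of -0.53 (adjusted p = 0.0128) and -0.45 (adjusted p = 0.0497). Uqcrc2, a core subunit of the cytochrome bc1 complex, was positive on every array (0.72, 0.81, 0.998 and 0.24) and fitted at 0.69 (SE 0.17, adjusted p = 0.0497), with 2 clones of one sign. None of 12 genes of the mitochondrial ribosome, import and carriers passed, where 2.78% of all features did. Mrpl9, negative on every array, was nearest at -0.41 (adjusted p = 0.071). Chchd2, an intermembrane space protein linked to oxidative phosphorylation and placed in no list, was at -0.93, -0.16, -0.15 and -0.87 and passed at -0.53 (adjusted p = 0.0321).

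Of the 10 named genes with a positive ratio, 6 came from the lists of ubiquitin, RNA-binding, vesicle and lipid genes. Anapc4, a subunit of the anaphase-promoting ubiquitin ligase, was positive on all arrays at 1.32, 0.67, 0.57 and 0.82 and fitted at 0.85 (SE 0.13, limma adjusted p = 0.00596), the highest among named genes. Ube2s, the conjugating enzyme that extends chains for the same ligase, was at 1.26, -0.09 and 1.13 on replicates 1, 3 and 4 and fitted at 0.53 (adjusted p = 0.0383). These were the 2 of 25 proteasome and ubiquitin genes that passed, against 0.892% of all features with a positive ratio; the list median was 0.06.

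For the next 3 lists the share of all features passing with a positive ratio was 0.892%. Of 27 RNA-binding and splicing genes 2 passed, both positive on every array: Hnrnpr, a nuclear ribonucleoprotein, at 1.13, 0.28, 0.52 and 0.77 (fitted 0.67), and Rbm12b1 at 1.36, 0.22, 0.17 and 0.94 (fitted 0.67). Smap1, which acts on ARF6 in clathrin-dependent endocytosis, gave the most even values of the passing genes with a positive ratio. They were 0.87, 0.69, 0.60 and 0.39, with block means of 0.63 and 0.64. It fitted at 0.64 (SE 0.09, adjusted p = 0.00348) and was the single member passing of 22 vesicle traffic genes. Cers4, a ceramide synthase, was likewise positive throughout (1.07, 0.64, 0.92 and 0.40, fitted 0.76, adjusted p = 0.0411), 1 of 6 lipid genes tested.

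Besides Chchd2, 7 passing genes belonged to no list. Agbl5, which removes glutamate branches from tubulin, had the second lowest adjusted p (1.89e-04 in limma) with a fitted ratio of -0.87 (SE 0.09). Its values were -1.86, -0.02, 0.21 and -1.80: block A was strongly negative and block B near 0. Tecpr1, a protein of autophagosome maturation, was negative on every array (-1.22, -0.55, -0.34 and -1.35, fitted -0.87). Timeless, of the replication fork, was at -1.53, -0.23, 0.20 and -1.43 (fitted -0.74), and Rabepk, an effector of RAB9, at -0.87, -0.19, 0.23 and -1.08 (fitted -0.48); for both, replicate 3 was on the positive side.

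The cyclophilin Ppia had its larger ratios in block B (-0.16, -0.90, -0.59 and -0.07, fitted -0.43). Ms4a6d, a membrane protein best known from myeloid cells, was positive on all arrays (1.23, 0.58, 0.14 and 0.91, fitted 0.72), while the macrophage markers Fcgr1 and Fcer1g were at -0.08 and 0.01. Rcc2, a regulator of mitosis, was split by block at 1.41, -0.34, -0.34 and 1.08 (fitted 0.45). Genes of carbohydrate and amino acid metabolism (12 tested), cell cycle and chromatin (14) and the cytoskeleton (12) held no passing member, with medians of -0.01, 0.03 and 0.00. Of all features 2.78% passed. The 26 passing features without a single symbol included spot 20327 at -0.88, spot 28557 at -0.92 on 3 arrays, and spot 23385, negative on every array (-0.54, -0.88, -0.77 and -0.38), at -0.65.

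**Figure D4:**
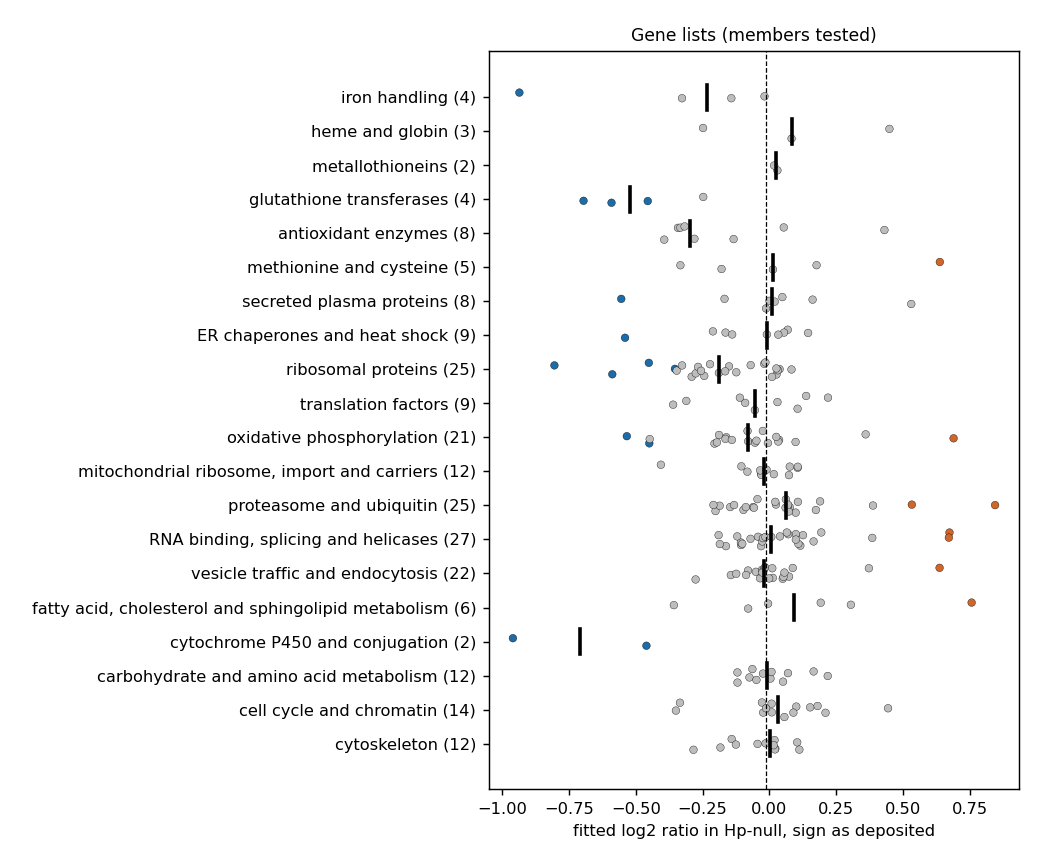
Fitted log2 ratio in Hp-null liver (x axis, sign as deposited) of every tested member of each gene list, with the number tested in brackets. Blue and orange points passed the test with a negative and a positive ratio, grey points did not, black bars are list medians and the dashed line is the median of all features (-0.01). The glutathione transferases lie wholly below 0, and the ribosomal proteins are shifted below the dashed line.

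The Hp-null ratio was next set against the Hx-null ratio, a difference in which the shared wild-type pool cancels. Of 1848 features tested 21 passed (1.14%, limma with the block term, 271 at an unadjusted p under 0.05), all with the lower ratio in Hp-null, and 19 of them had a positive ratio in Hx-null. Of the 21, Ftl1 and Agbl5 also passed against the wild-type pool. Ftl1 was at -0.94 in Hp-null, -0.27 in Hx-null and -0.38 in HpHx-null, and the difference between Hp-null and Hx-null was -0.66 (SE 0.10, adjusted p = 0.00183). Its Hx-null values were 0.29, 0.40, -0.82 and -0.97, so they straddled 0, while the Hp-null values did not. Agbl5 was at -0.13 in Hx-null, a difference of -0.74 (SE 0.13, adjusted p = 0.00596).

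Mat1a differed in the same test by -0.82 (SE 0.17, adjusted p = 0.0435), with ratios of -0.33 in Hp-null, 0.49 in Hx-null and 0.57 in HpHx-null, though its Hp-null ratio did not pass by itself. Wdr7, chosen after its values were seen, differed by -1.27 (adjusted p = 0.00137) with an Hp-null ratio of -0.09 and an Hx-null ratio of 1.18, so the departure from the wild-type pool was on the Hx-null side. The other 17 features carry several symbols or none (10 and 7) and show the same layout: Hp-null ratios of -0.42 to -0.04, Hx-null ratios of 0.30 to 1.53 and differences of -1.58 to -0.58. With the labelled dyes in place of the blocks 11 features passed this difference, and with each array turned by its dye 0 did.

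Against the double-null liver, 0 of 1690 features passed (limma with the block term, where 210 had an unadjusted p below 0.05). The count was also 0 with the labelled dyes and in the unmoderated test. The Ftl1 difference was -0.56 (adjusted p = 0.107) and that of Mat1a -0.90 (adjusted p = 0.107). Gstp1 was at -0.59, -0.86 and -0.92 in Hp-null, Hx-null and HpHx-null, and its Hp-null ratio did not differ from either by the test (adjusted p = 0.501 and 0.434). Ttr was at -0.55, 0.21 and 0.05, with a difference from Hx-null of -0.76 (adjusted p = 0.0959), and Hspa5 at -0.54, 0.08 and 0.03. Smap1 was at 0.64, 0.50 and 0.59 in Hp-null, Hx-null and HpHx-null, and Anapc4 at 0.85, 0.35 and 0.61. Among the named genes that passed, 25 of the 28 with an Hx-null ratio had the same sign there. In HpHx-null liver 18 of 23 did. The share over all features is not given here. The 3 sets of ratios share the wild-type pool, so likeness between them is not a result.

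**Figure D5:**
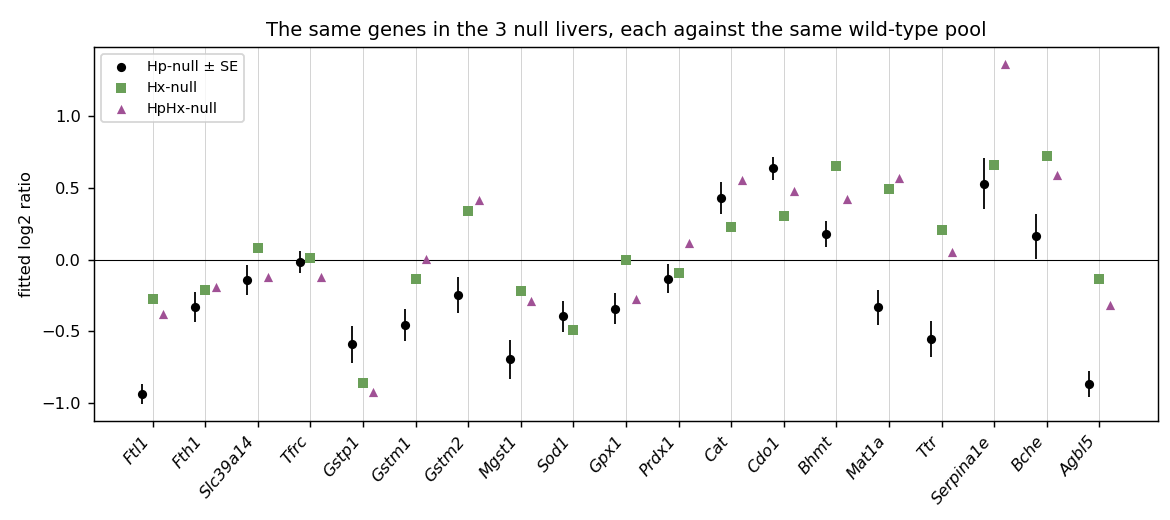
Fitted log2 ratio (y axis, sign as deposited) of 19 genes in Hp-null (black, with standard error), Hx-null (green) and HpHx-null (purple) liver, each against the 1 wild-type pool. Ftl1 lies at -0.94 in Hp-null and at -0.27 and -0.38 in the others, while Gstp1 lies below -0.5 in each.

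Single arrays weigh heavily in these counts. Without Hp-null replicate 1 the count against the wild-type pool was 8, without replicate 2 it was 12, without replicate 3 it was 106 and without replicate 4 it was 42. The named genes that passed whichever Hp-null array was left out were Ftl1, Agbl5, Cdo1, Ces1d, Smap1 and Tecpr1, 6 of the 30.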

How the data were processed

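Total RNA of the liver pools was labelled directly with Cy3 or Cy5 and hybridised to mouse cDNA arrays, per the labels' protocols. The authors deposited 1 table of log ratios for 12 arrays, taken here as log2 values; their direction, log base, background correction, normalization and any filter on dim spots were not given in the sources used here.

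Each array was centred on its median, duplicate spots were averaged, and clones of 1 gene were averaged. Features with values on at least 3 of the 4 Hp-null arrays were fitted over all 12 arrays with limma 3.58.1 in R 4.3.3 (lmFit, robust eBayes), modelling each genotype by 1 coefficient and adding, for every gene, a term for the 2 array blocks set by the sign of each array's loading on the first component. The threshold was a Benjamini-Hochberg adjusted p of 0.05. The scripts were tested on simulated data in which the block of each array was supplied as known. That test cannot show how blocks read from the values change the counts. The number of arrays limits the precision. Named were all passing genes with 1 symbol (at most 30), all measured members of the iron, heme, metallothionein, glutathione transferase, antioxidant, methionine and secreted protein lists, at most 3 members of each other list and at most 3 unnamed spots. The members, gene lists, array blocks and spot numbering were chosen with earlier results of these data known. Promoter windows came from RefSeq (GRCm38.p6). Alternatives covered the array term, the scaling, the filter, the moderation, single spots, clones and each array left out.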

Additional observations from a re-analysis of the deposited data

Results flagged for a closer look

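The differences between 2 null livers, each against the wild-type pool, passed their own test for 4 named genes. The Hp-null ratio minus the Hx-null ratio was -0.66 for the ferritin light chain Ftl1, -0.74 for Agbl5, -0.82 for Mat1a and -1.27 for Wdr7 on the log2 scale. Of 79 features with values on all 4 Hp-null arrays that were checked by Dixon's test, 1 had an array standing apart: the mitochondrial ribosomal protein Mrpl17 was at -0.20 on replicate 3 and at 0.23, 0.18 and 0.21 on replicates 1, 2 and 4. Chance alone marks about 5% of groups in this test.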

How the results depend on the processing

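The count of features passing against the wild-type pool (56, of them 18 positive) was 0 with the labelled dyes, with no array term and with ratios turned by the labelled dyes. It was 96 (58 positive) with loadings in place of blocks, 6 among features measured on all 12 arrays, 5 in the unmoderated test and 23 at a fold of at least 1.5. On values as deposited it was 84 (38 positive), and after quantile normalization 46 (27 positive). With loadings and after quantile normalization positive ratios thus outnumbered negative ones, unlike in the main fit. Leaving out 1 array gave 8 to 106: 35 and 37 without Hx-null replicates 2 and 3, 21 without HpHx-null replicate 4, and 8, 12 and 106 without Hp-null replicates 1, 2 and 3. The difference from Hx-null (21) was 11 with the labelled dyes, 10 with no array term, 0 with turned ratios, 2 on all 12 arrays and 12 unmoderated; leaving out 1 array gave 16 to 71 (71 without Hp-null replicate 3, 34 without HpHx-null replicate 3). The difference from HpHx-null (0) was 1 on all 12 arrays and 0 to 6 with 1 array left out (6 without HpHx-null replicate 1). With the replicate number as a block, 0 features passed against the wild-type pool, 0 against Hx-null and 0 against HpHx-null; deviations of same-numbered arrays correlated at -0.85 to 0.85 over 12 pairs, so the numbers do not pair the arrays.

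All 30 named genes kept their sign except with turned ratios, where 7 reversed: Cdo1 to -0.055, Rpl32 to 0.083, Mgst1 to 0.021, Gstp1 to 0.013, Ttr to 0.017, Rpl27a to 0.091 and Atp5g1 to 0.068. Of the 30, 26 passed with loadings, 29 as deposited, 20 after quantile normalization, 28 in the Hp-null arrays alone and 4 in the unmoderated test (Ftl1, Agbl5, Cdo1 and Rpl32). The median of translation factors was 0.09 without Hp-null replicate 2. The ribosomal median was -0.14 without Hp-null replicate 2 and -0.24 without replicate 3. The cause of these changes was not tested.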
